A study of Frankliniella occidentalis and Frankliniella intonsa with 9 samples.

Results

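The cytosolic ribosomal proteins of thrips antennae were described from a table of 48889 rows, each an assembled gene with its expression in 9 RNA sequencing libraries. A row was taken where its Swiss-Prot description (the matched entry of a curated protein database) began with 40S or 60S ribosomal protein, the matched organism was an animal, and the value was at least 1 TPM in at least 3 of the 6 Frankliniella occidentalis libraries. TPM is a share of each library's transcripts, scaled to transcript length. Of 460 rows with a 40S or 60S description, 283 had an animal match and 168 of these passed the TPM minimum, 75 of the small subunit and 93 of the large subunit. The 3 groups of 3 libraries came from antennae of 1 day old adults: male F. occidentalis (the western flower thrips), female F. intonsa and female F. occidentalis. All 9 were made from total RNA by template-switching cDNA synthesis and PCR amplification, and the labels name no strain, mutation or treatment. The labels do not say whether libraries of a group came from separate insects or pools, so p-values measure only the spread between these libraries, which may be technical. Males are set against females of F. occidentalis throughout, and a positive log2 fold change is higher in males. It is a difference of log2(TPM + 1), a scale that understates the change of low rows. Rows were thus chosen by annotation wording and by their own TPM, and 145 of the 168 reached the minimum in all 6 libraries, 3 reached it in 3 male and 0 female libraries, and 0 in 3 female and 0 male libraries.

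The ribosome translates mRNA into protein. Its small subunit (40S) holds the mRNA and reads the codons, and its large subunit (60S) joins the amino acids and passes the new chain through an exit tunnel. Each subunit combines ribosomal RNA with a fixed set of proteins, nearly all of them present in equal numbers per ribosome, so their mRNAs are made by every cell and in animals tend to rise and fall together. In the antenna, olfactory neurons, their support cells, epidermis and every other cell type contribute to such mRNAs. In bulk RNA, fewer cells of a type and less RNA per cell cannot be told apart.

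The label of cytosolic held for 166 of the 168 rows. The other 2, TRINITY_DN42583_c1_g3 and TRINITY_DN42583_c1_g10, matched the mitochondrial S12 of Drosophila (technical knockout), a protein of the mitochondrial ribosome. They held 22.1, 14.9 and 12.8 TPM in the male libraries, against 23.4, 20.8 and 17.5 TPM in the female libraries, and 5.19, 3.84 and 6.17 TPM in males, against 4.77, 6.38 and 7.0 TPM in females, and the sexes overlapped in both. They are left out of the sums per protein. The 166 rows covered 70 of the 79 proteins of the animal cytosolic ribosome, 30 of 32 in the small and 40 of 47 in the large subunit. The 9 without a row were S15, S27a, L5, L37, L40, L41 and the stalk proteins P0, P1 and P2. The 168 rows came from 108 assembly components (rows with a shared identifier stem), and 60 proteins, mitochondrial S12 among them, had 2 to 5 rows. Rows of 1 protein can be alleles, copies, fragments or another species' transcript, and the read assignment between near-identical rows is uncertain, so the sum per protein is the value closest to a gene. No sequence of these rows was used here.

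Total TPM lay between 935518 and 949683 in male F. occidentalis, between 960374 and 987791 in F. intonsa and between 955728 and 960131 in female F. occidentalis. The files hold no read numbers, so the depth and the counting error are unknown. The olfactory coreceptor Orco, which marks olfactory neurons, summed to 9.72, 23.3 and 16 TPM in males, to 0.08, 18.4 and 0 TPM in F. intonsa and to 9.16, 16.6 and 16.1 TPM in female F. occidentalis. F. intonsa libraries 1 and 3 stand apart: they list 16360 and 10556 rows above 0, against 28515 in F. intonsa library 2 and 22666 to 24204 in F. occidentalis. Muscle genes summed to 592 and 286 TPM in those libraries, against 33348 TPM in F. intonsa library 2.

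Ribosomal protein transcripts took a smaller share of the RNA in males. The 168 rows held 1.36%, 1.33% and 1.58% of all TPM in the 3 male libraries, against 4.30%, 3.65% and 2.70% in the 3 female libraries. No male library reached the lowest female library, and the male mean of 1.42% ± 0.140 was 40.1% of the female mean of 3.55% ± 0.807 (SD, n = 3 each; exact two-sided permutation test, p = 0.1, the smallest that 3 against 3 allows). Both subunits were lower by a similar proportion. The small subunit held 0.603% ± 0.0527 in males and 1.5% ± 0.357 in females, and the large subunit 0.820% ± 0.0881 in males and 2.05% ± 0.452 in females (SD, n = 3 each). The ratio of 60S to 40S TPM was 1.36 ± 0.0367 in males and 1.37 ± 0.0419 in females (SD, n = 3 each; exact two-sided permutation test, p = 0.7). Female libraries differed among themselves more than male libraries did, with female library 1 the highest and female library 3 the lowest.

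**Figure D1:**
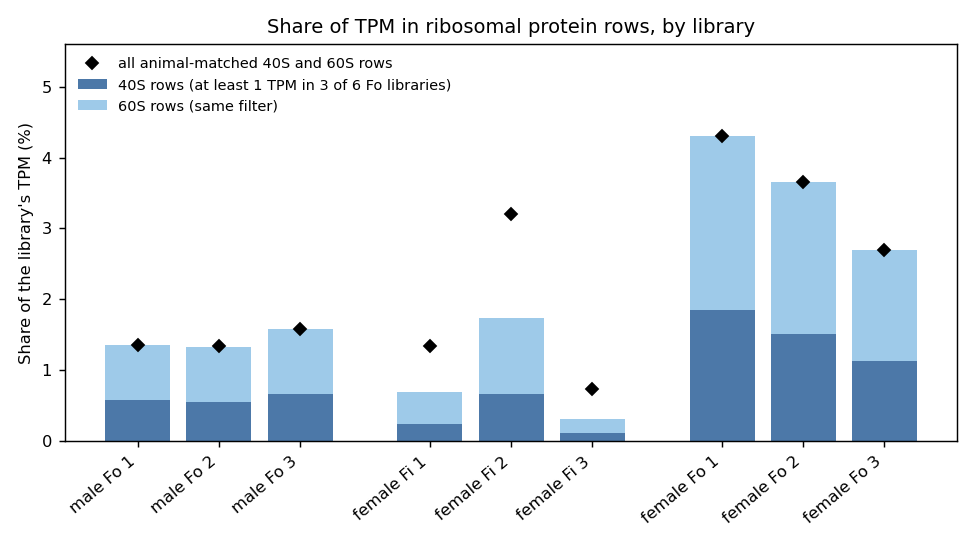
Share of each library's TPM in the 40S rows (dark bars) and 60S rows (light bars) described here, with diamonds for all animal-matched 40S and 60S rows, in percent. Fo is F. occidentalis and Fi is F. intonsa. The 3 male Fo libraries sit between 1.33% and 1.58% and the 3 female Fo libraries between 2.70% and 4.30%, and bars and diamonds separate visibly only in the Fi libraries.

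Transcripts of proteins made by the fat body also differed between the sexes. The fat body list (vitellogenin, hexamerin and apolipophorin, proteins that the insect fat body secretes in bulk) summed to 76.6, 139 and 76.2 TPM in the male libraries, against 5278, 7119 and 3938 TPM in the female libraries. Of its 32 tested rows, 23 met the TPM minimum through the female libraries alone, which fixes their direction. Of the other 9, 3 were called lower in males and 0 higher (limma adjusted p under 0.05), against 0.918% of all tested rows lower and 0.968% higher. The median log2 fold change of these 9 was -0.55, against 0.19 over all tested rows. Among the 3 called are the vitellogenin rows TRINITY_DN46805_c1_g1 and TRINITY_DN46768_c0_g1, the latter at 1.04, 0.25 and 0.48 TPM in the male libraries. Neither reached 1 TPM in all 3 male libraries, so both passed the minimum only with the female libraries, which favours their direction too. Vitellogenin, the yolk protein precursor, had in the most changed row of the list 1.26, 0.60 and 1.38 TPM in the male libraries, against 667, 1233 and 642 TPM in the female libraries. Both the list and this row were far lower in males, and 7 of the 45 rows of the list were at 0 in all 6 libraries. The list was not split by protein, so its sum does not measure the amount of fat body. Summed muscle TPM ranged from 21652 to 42182 in males and from 35883 to 55692 in females, and eye genes from 1357 to 3365 in males and from 2583 to 3679 in females. The part of fat body, muscle or eye RNA in the ribosomal protein difference was not tested.

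The sums per protein moved together. When the rows of each protein were added up and refitted in the whole table, 42 of the 70 cytosolic proteins were lower in males and 0 were higher (limma, Benjamini-Hochberg adjusted p under 0.05), against 0.812% of all rows of that table lower and 0.89% higher. At an unadjusted p under 0.05, 69 were lower and 0 higher, where 1159 of the 22015 single rows tested were lower and 2256 higher. The sexes did not overlap for 68 of the 70 proteins, which were all lower in males, where 6.83% of single rows over the whole table separated in that direction. The median log2 fold change was -1.42, with the middle 50% of proteins between -1.55 and -1.19, while the median over all rows was 0.19. By subunit, 17 of 30 small subunit proteins (median -1.42) and 25 of 40 large subunit proteins (median -1.44) were lower in males. Female library 1 was the highest of the 6 libraries for 64 of the 70 proteins, and female library 3 the lowest female library for 69. The number of calls depends on each of the 6 libraries: it was 4, 1 and 5 without male library 1, 2 and 3, and 0, 0 and 13 without female library 1, 2 and 3, while the median stayed between -1.61 and -1.29. Without the mean-variance trend limma called 0 proteins, and after quantile normalization 13.

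**Figure D2:**
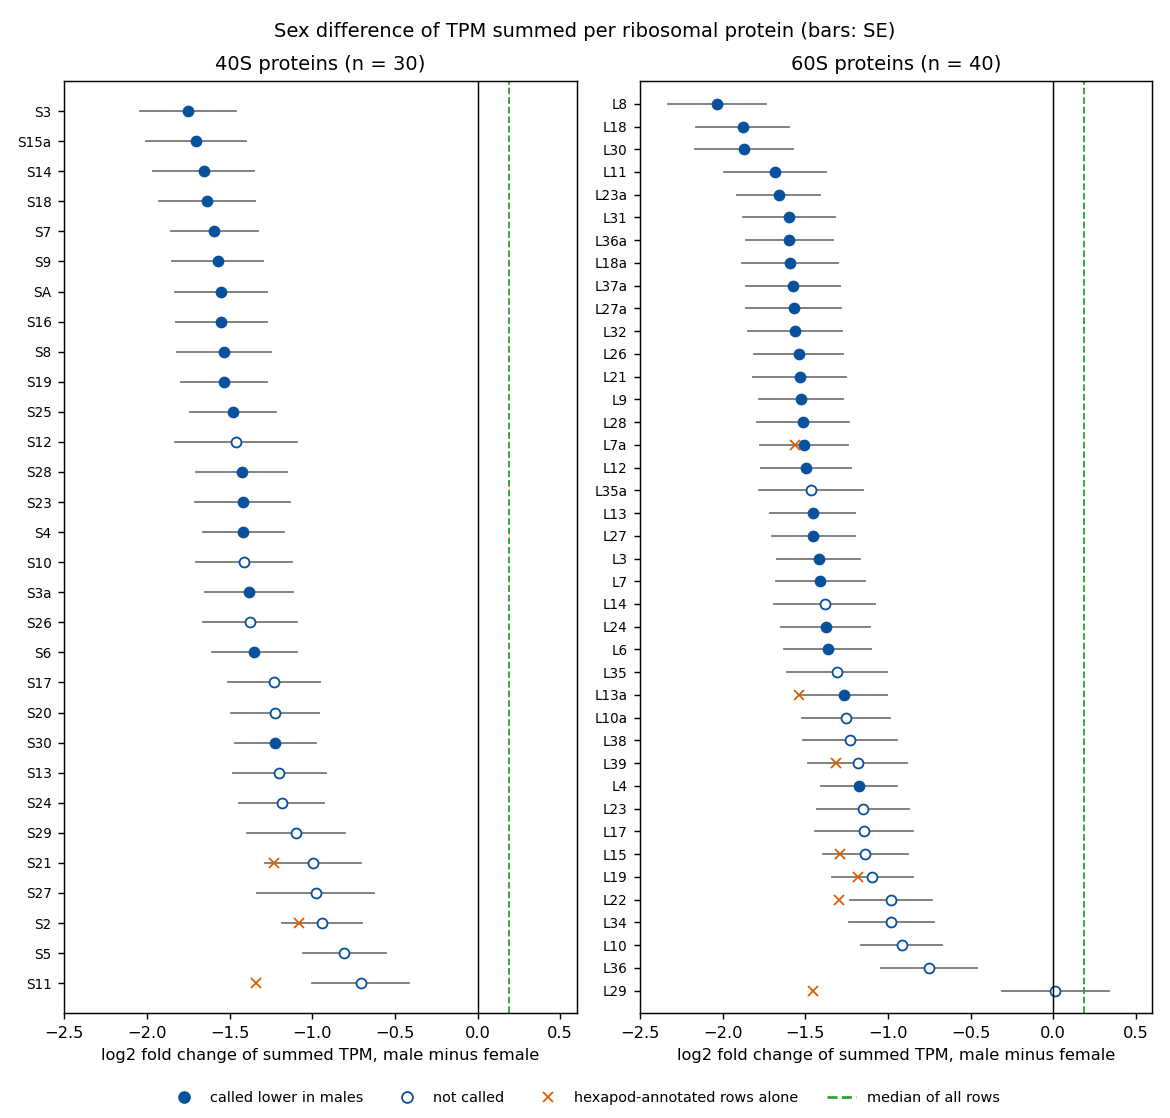
Log2 fold change (male minus female, F. occidentalis) of TPM summed per protein, small subunit left and large subunit right, with SE as bars. Filled circles are called lower in males, crosses give the sum over hexapod-annotated rows alone where it differs by more than 0.05, and the dashed line is the median of all rows at 0.19. All circles lie below 0 except L29 at 0.01, whose cross lies at -1.45.

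Among the small subunit, S3 fell most. S3 lines the mRNA entry channel and also acts as a DNA repair endonuclease in Drosophila and human. Rows of S3 summed to 132, 116 and 180.3 TPM in the male libraries, against 582, 513 and 359 TPM in the female libraries, giving -1.75 ± 0.29 SE on the log2 scale and an adjusted p of 0.0278 (limma). S15a, of the body of the subunit, summed to 144, 117 and 172 TPM in the male libraries, against 641, 459 and 346 TPM in the female libraries (-1.70 ± 0.30 SE; limma adjusted p = 0.0320). S14, which lies on the platform where mRNA leaves, summed to 174, 134 and 192 TPM in the male libraries, against 691, 563 and 363 TPM in the female libraries (-1.66 ± 0.31 SE; limma adjusted p = 0.0361). In each of these 3 proteins the highest male library stayed below the lowest female library. S6, the target of S6 kinase in growth signalling, was looked up after the values were seen. It had 116, 131 and 144 TPM in males, against 369, 376 and 264 TPM in females (-1.35 ± 0.26 SE; limma adjusted p = 0.0400), again without overlap.

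S2, which lines the mRNA entry site, was the most abundant ribosomal protein of all over the 6 libraries. It summed to 575, 466 and 545 TPM in the male libraries, against 1116, 1029 and 906 TPM in the female libraries. Its fold change of -0.94 ± 0.24 SE was smaller than that of most proteins and did not pass the threshold (limma adjusted p = 0.0990), although the sexes did not overlap. The least abundant small subunit proteins were S12, of the beak, with 36.4, 68.3 and 80.4 TPM in males, against 203, 191 and 112 TPM in females (-1.46 ± 0.37 SE; limma adjusted p = 0.0924), and S17, with 63.6, 67.6 and 70.8 TPM in males, against 215, 155 and 122 TPM in females (-1.23 ± 0.28 SE; limma adjusted p = 0.0689). Neither passed the threshold, and in both the sexes separated. S27, a zinc-binding protein, was the one small subunit protein whose sexes overlapped, with 209.6, 333 and 396 TPM in males, against 753, 727 and 389.7 TPM in females: male library 3 lay above female library 3.

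The largest falls of all were in the large subunit. L8, which sits beside the peptidyl transferase centre, summed to 213, 192 and 241 TPM in the male libraries, against 1169, 956 and 615 TPM in the female libraries. This is 23.6% of the female mean, a log2 fold change of -2.04 ± 0.30 SE (limma adjusted p = 0.0169), and each male library was below the lowest female library. L18 had 182, 133 and 205 TPM in the male libraries, against 757, 659 and 502 TPM in the female libraries (-1.88 ± 0.28 SE; limma adjusted p = 0.0196). L30 had 198, 144 and 166 TPM in the male libraries, against 836, 631 and 444 TPM in the female libraries (-1.87 ± 0.30 SE; limma adjusted p = 0.0230). Like L8, both proteins separated the sexes with a wide margin.

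L11 binds the 5S ribosomal RNA together with L5 and in mammals restrains the p53 inhibitor Mdm2. It had 108, 77.6 and 119 TPM in the male libraries, against 428, 341 and 231 TPM in the female libraries (-1.68 ± 0.31 SE; limma adjusted p = 0.0356). L23a, at the exit of the tunnel where the signal recognition particle docks, had 67.9, 68.9 and 63.5 TPM in the male libraries, against 256, 215 and 176 TPM in the female libraries (-1.66 ± 0.25 SE; limma adjusted p = 0.0198). The 3 male values of L23a were close to each other, and none came near the lowest female value.

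L31, at the rim of the tunnel, and L10, which joins the subunit late in its assembly, were the most abundant large subunit proteins. L31 had 341, 351 and 395 TPM in the male libraries, against 1422, 1148 and 810.0 TPM in the female libraries (-1.60 ± 0.28 SE; limma adjusted p = 0.0320), and L10 had 490.2, 448 and 525 TPM in the male libraries, against 1018, 962 and 794 TPM in the female libraries (-0.92 ± 0.24 SE; limma adjusted p = 0.106). L39, a small protein of the tunnel wall, followed with 292, 379 and 408 TPM in the male libraries, against 1009, 923 and 569 TPM in the female libraries (-1.18 ± 0.30 SE; limma adjusted p = 0.0929). Of these 3, L31 alone passed the threshold, and the sexes separated in all 3. The least abundant were L12, at the base of the stalk, with 53.9, 52.5 and 63.5 TPM in males, against 198, 174 and 122 TPM in females (-1.50 ± 0.27 SE; limma adjusted p = 0.0356), L21, with 65.3, 66.4 and 70.9 TPM in males, against 269, 192 and 148 TPM in females (-1.53 ± 0.28 SE; limma adjusted p = 0.0357), and L14, with 61.7, 66.2 and 101 TPM in males, against 245, 207 and 148 TPM in females (-1.38 ± 0.31 SE; limma adjusted p = 0.0647). L12 and L21 passed the threshold and L14 did not, though all 3 separated the sexes. The order of levels was alike in the sexes: across the 70 proteins, which share their libraries, the log2 male and female means correlated with Pearson's r = 0.89 and Spearman's rho = 0.86.

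At the level of rows, 61 of the 168 were lower in males (limma adjusted p under 0.05), against 0.918% of all 22015 rows tested, and 4 were higher, against 0.968% (1.89% of all rows in either direction). The 168 rows had a median log2 fold change of -1.35, and 134 of them lay below 0, where 37.6% of all rows did. The small subunit had 27 lower and 3 higher rows of 75, and the large subunit 34 lower and 1 higher of 93. The sexes separated with males lower in 114 rows, against a background of 6.83%, and with males higher in 22, against 13.3%. Of those 22, 3 met the TPM minimum through the male libraries alone. The row count fell to 8, 5 and 19 without male library 1, 2 and 3 and to 2, 2 and 17 without female library 1, 2 and 3, and without the mean-variance trend it was 2. Scaling changed the split of calls: 26 lower and 2 higher after quantile normalization, and 69 lower and 1 higher with each library centred on its median, which moved the median of all rows to -0.02 and -0.05. Called lower rows were abundant, with a median of 185 TPM over the 6 libraries, while the 59 rows with a mean under 50 TPM had 4 lower, 3 higher and a median log2 fold change of 0.06. Of the 109 rows with a mean of at least 50 TPM, 107 were hexapod-annotated, against 138 of all 168. Level and matched organism, described below, are thus not separate in this contrast.

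**Figure D3:**
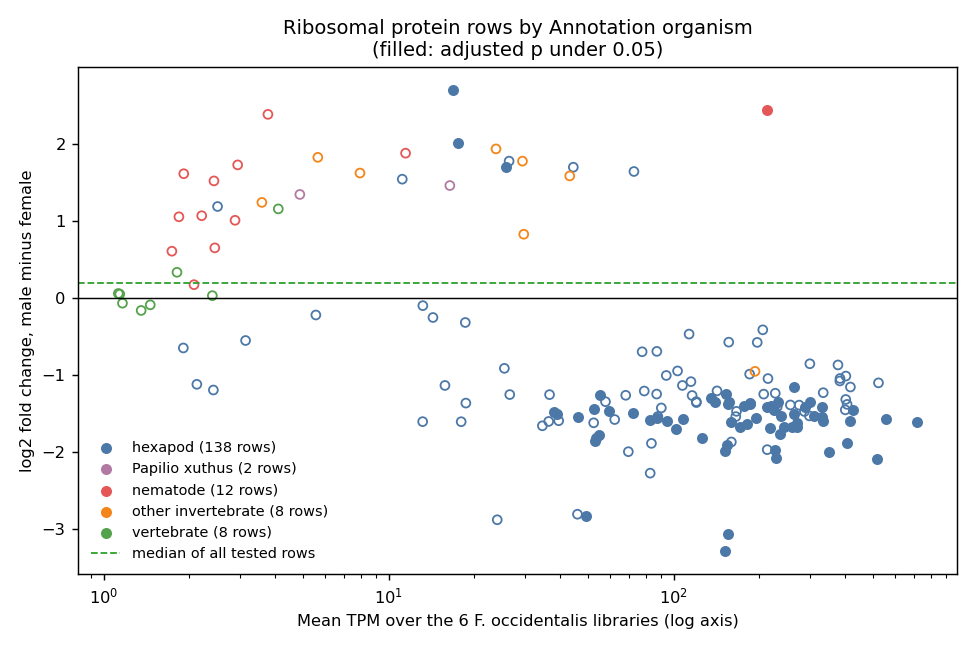
Log2 fold change (male minus female) of the 168 rows against their mean TPM over the 6 F. occidentalis libraries on a log axis, coloured by the organism in the Annotation column, with filled points for an adjusted p under 0.05. Of the 138 hexapod-annotated rows 130 lie below 0, and of the 30 others 26 lie above 0, 3 of them rows that met the TPM minimum through the male libraries alone.

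The rows with the largest falls belonged to S4 and L13a. The S4 row TRINITY_DN38880_c2_g5 had 26.4, 13.7 and 53.0 TPM in the male libraries, against 295, 239.9 and 280.0 TPM in the female libraries (-3.28 ± 0.43 SE; limma adjusted p = 0.00974). S4 is a protein of the small subunit body, and the male level of this row was 11.4% of the female mean. The L13a row TRINITY_DN45830_c1_g10 had 24.6, 43.4 and 28 TPM in the male libraries, against 339, 323 and 172 TPM in the female libraries (-3.06 ± 0.35 SE; limma adjusted p = 0.00383). L13a acts outside the ribosome in mammals as part of a complex that silences inflammatory mRNAs, and its row was the one among 25 called rows followed here that stayed past the threshold without each of the 6 libraries in turn. The L36 row TRINITY_DN39686_c0_g3 had 17.4, 8.87 and 7.38 TPM in the male libraries, against 57.2, 138 and 66.3 TPM in the female libraries (-2.83 ± 0.43 SE; limma adjusted p = 0.0191). Sexes did not overlap in any of the 3 rows.

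Falls of about 2 on the log2 scale were shared by rows of S30, S20, S7 and S3 in the small subunit. S30, which animals make as a fusion with a ubiquitin-like protein, had in TRINITY_DN41394_c0_g3 53.9, 92.4 and 124 TPM in the male libraries, against 432, 281 and 388 TPM in the female libraries (-2.07; limma adjusted p = 0.0271). S20, of the head of the subunit, had in TRINITY_DN38459_c0_g6 60.1, 37.4 and 89.0 TPM in the male libraries, against 287, 252 and 181 TPM in the female libraries (-1.99; limma adjusted p = 0.0314). Both separated the sexes. The S7 row TRINITY_DN42528_c0_g4 had 103, 69.0 and 99.99 TPM in the male libraries, against 477, 351 and 261 TPM in the female libraries (-1.97; limma adjusted p = 0.0204), and the S3 row TRINITY_DN46102_c0_g9 had 52.5, 50.7 and 94.3 TPM in males, against 280.4, 269.9 and 179.9 TPM in females (-1.90; limma adjusted p = 0.0299). In these rows too no male library reached a female library.

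In the large subunit, the L8 row TRINITY_DN41213_c0_g1 had 189.8, 168 and 219.6 TPM in the male libraries, against 1082, 887 and 563 TPM in the female libraries (-2.08; limma adjusted p = 0.0158). The L30 row TRINITY_DN40995_c0_g2 had 137, 116 and 162 TPM in males, against 727, 548 and 414 TPM in females (-2.0; limma adjusted p = 0.0158). The L18 row TRINITY_DN40071_c0_g2 is the protein's single row, and its values are those of the L18 sum. The rows of highest mean level were of L31, L27a, S2, L8, L27, L32, L23 and S26, at 406 to 718 TPM over the 6 libraries, and all 8 separated the sexes with males lower. L31, L27a, L8, L27 and L32 passed the threshold and S2, L23 and S26 did not (limma adjusted p = 0.0566, 0.0762 and 0.0630). L27a (TRINITY_DN44970_c0_g3) had 239, 263 and 325 TPM in the male libraries, against 987, 933 and 588 TPM in the female libraries (-1.57; limma adjusted p = 0.0351). L23 (TRINITY_DN42035_c0_g9), on the face that meets the small subunit, had 256, 269 and 237 TPM in the male libraries, against 725, 602 and 416 TPM in the female libraries (-1.16).

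Rows of the same protein differed among themselves. Of the proteins with at least 2 hexapod-annotated rows below 0, 55 in number, 53 had all these rows in 1 assembly component. The gap between their most and least negative row had a median of 0.35 on the log2 scale and exceeded 1 in 11 proteins, the widest being 2.71 in S4. Beside S4 row TRINITY_DN38880_c2_g5 stands TRINITY_DN38880_c2_g6, with 176, 140.4 and 154 TPM in the male libraries, against 268, 260.0 and 182 TPM in the female libraries (-0.58; limma adjusted p = 0.336). In females these rows were at similar levels in libraries 1 and 2 and the first was the higher in library 3, while in each male library the second held most of the summed TPM. In L13a, beside TRINITY_DN45830_c1_g10 stands TRINITY_DN45830_c1_g1, with 111, 121 and 146 TPM in the male libraries, against 198, 174 and 188 TPM in the female libraries (-0.57; limma adjusted p = 0.301). In S30 the partner TRINITY_DN41394_c0_g6 had 198, 159.5 and 146 TPM in the male libraries, against 285, 326 and 118 TPM in the female libraries (-0.41), and in S20 the partner TRINITY_DN38459_c0_g4 had 83.5, 115 and 83.6 TPM in the male libraries, against 132, 172 and 94.2 TPM in the female libraries (-0.47). The sexes overlapped in the S30 and S20 partners. Summed over hexapod-annotated rows, the same 55 proteins lay between -2.04 and -0.75, against -3.28 to -0.10 for their single rows. The gap between rows was not tested, and reads of near-identical rows can be divided differently in each library.

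**Figure D4:**
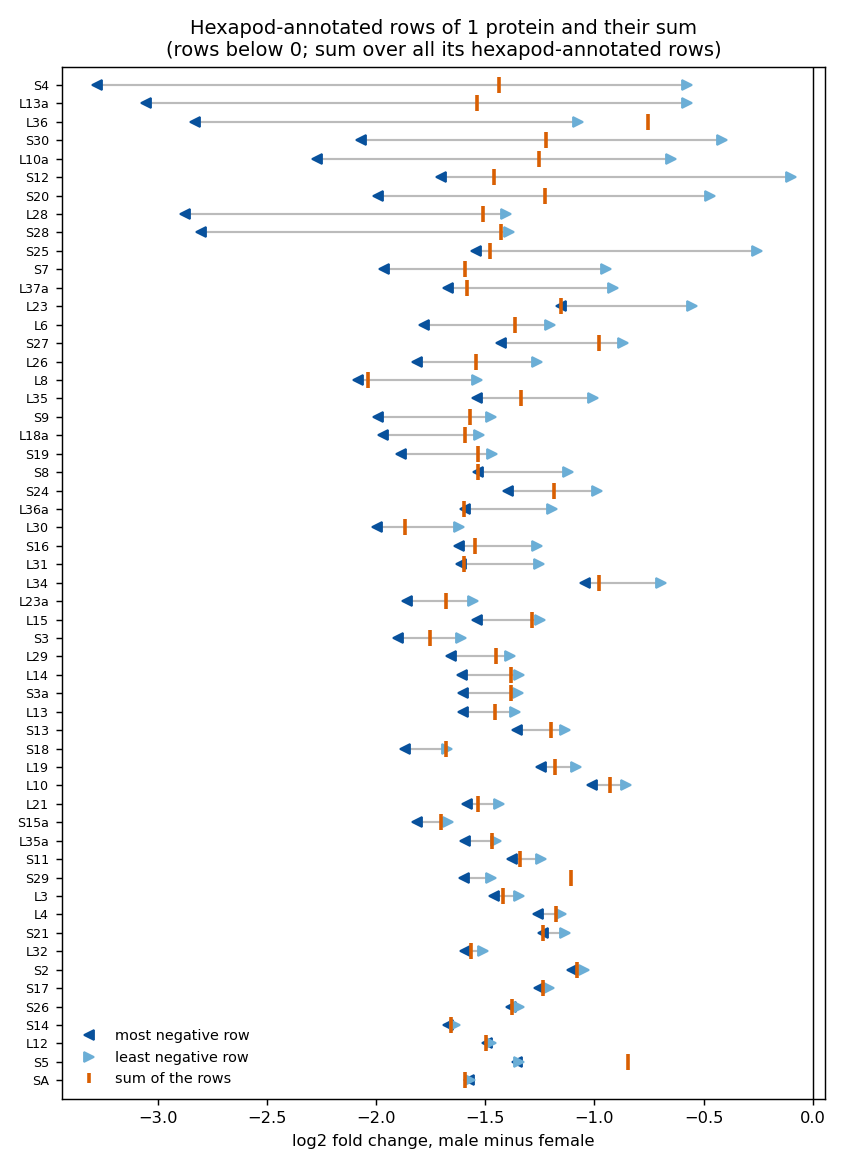
For 55 proteins, the most and least negative hexapod-annotated row (triangles) and the sum over all hexapod-annotated rows of the protein (vertical bar), as log2 fold change, male minus female. The rows span -3.28 to -0.10, while the sums span -2.04 to -0.75; where a sum lies right of both triangles (L36, S29, S5), the protein also has hexapod-annotated rows above 0.

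The 4 rows higher in males belonged to S29, L29 and S5. The S29 row TRINITY_DN40305_c2_g1, of 228 bases, had 28.3, 26.6 and 34.1 TPM in the male libraries, against 6.21, 2.51 and 3.09 TPM in the female libraries (2.70 ± 0.36 SE; limma adjusted p = 0.0101). S29 is a zinc-binding protein of the subunit's head, and this row's best match in the Annotation column (a second database match given in the table) is Drosophila eugracilis. The L29 row TRINITY_DN39361_c1_g4, of 224 bases, had 300.3, 223 and 561 TPM in the male libraries, against 40.5, 66.2 and 84.1 TPM in the female libraries (2.44 ± 0.40 SE; limma adjusted p = 0.0255). Its Swiss-Prot match is cattle and its Annotation match the nematode Oigolaimella attenuata. The S5 rows TRINITY_DN27296_c0_g4 and TRINITY_DN27296_c0_g1, both annotated from the house fly, had 35.4, 19.5 and 31.3 TPM in males, against 4.49, 6.97 and 7.56 TPM in females (2.0; limma adjusted p = 0.0305), and 54.6, 24.9 and 42.1 TPM in males, against 13.5, 9.11 and 11.3 TPM in females (1.70; limma adjusted p = 0.0490). Male library 2 was the lowest male library in each of the 4 rows, and no male library overlapped a female library. Without 1 library the count of higher rows was 1, 9 and 1 (male library 1, 2 and 3 left out) and 1, 0 and 1 (female library 1, 2 and 3 left out).

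S29 and S5 each had rows called in both directions. In S29 the other row, TRINITY_DN44076_c0_g8, had 42.8, 44.5 and 51.5 TPM in the male libraries, against 170.2, 150.2 and 111 TPM in the female libraries (-1.60; limma adjusted p = 0.0272), and in S5, a protein at the mRNA exit, TRINITY_DN37497_c0_g2 had 103, 94.4 and 112 TPM in the male libraries, against 313, 263 and 227 TPM in the female libraries (-1.36; limma adjusted p = 0.0345). The rows of opposite direction lie in different assembly components. The rows that fell were the more abundant in males as well as females, so the sums of both proteins had log2 fold changes below 0, -1.10 for S29 and -0.81 for S5, short of the threshold (limma adjusted p = 0.111 and 0.166).

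The direction of a row went with the organism of its Annotation match, a split chosen after the values were seen. Of the 138 rows annotated from a hexapod other than the butterfly Papilio xuthus, 130 lay below 0, 61 were called lower and 3 higher, and the median was -1.41. P. xuthus was set apart because 41 of all 213 rows called higher in males carry its name, so the class is not independent of the direction. With its 2 rows included, 130 of 140 hexapod rows lay below 0 (median -1.41). Without P. xuthus, the hexapod rows held 1.34% ± 0.112 of TPM in males and 3.51% ± 0.799 in females (SD, n = 3 each; exact two-sided permutation test, p = 0.1). The 30 other rows held 0.0786%, 0.0632% and 0.118% of TPM in the male libraries, against 0.0503%, 0.0476% and 0.0344% in the female libraries (exact two-sided permutation test, p = 0.1). This separation rests on the L29 row: without it the other 29 rows held 0.0469%, 0.0394% and 0.0589% in males, against 0.0461%, 0.0407% and 0.0256% in females, and the sexes overlapped (p = 0.4, same exact test). Of these 30 rows 26 lay above 0, but 3 of the 26, nematode-annotated rows of S2, S5 and L13a, met the TPM minimum through the male libraries alone, which fixes their direction. Without those 3, 23 of 27 lay above 0, 1 was called higher and 0 lower (limma). At an unadjusted p under 0.05 there were 12 higher and 1 lower. Over all rows without such male-only ones, 13352 of 21625 lay above 0, with 1952 higher and 1159 lower at that unadjusted p. Of these 21625, 176 were called higher and 202 lower. By Annotation organism the 27 were 9 nematode rows (median 1.05), 8 of other invertebrates (median 1.60), 8 of vertebrates (median 0.04) and 2 of P. xuthus (median 1.40).

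**Figure D5:**
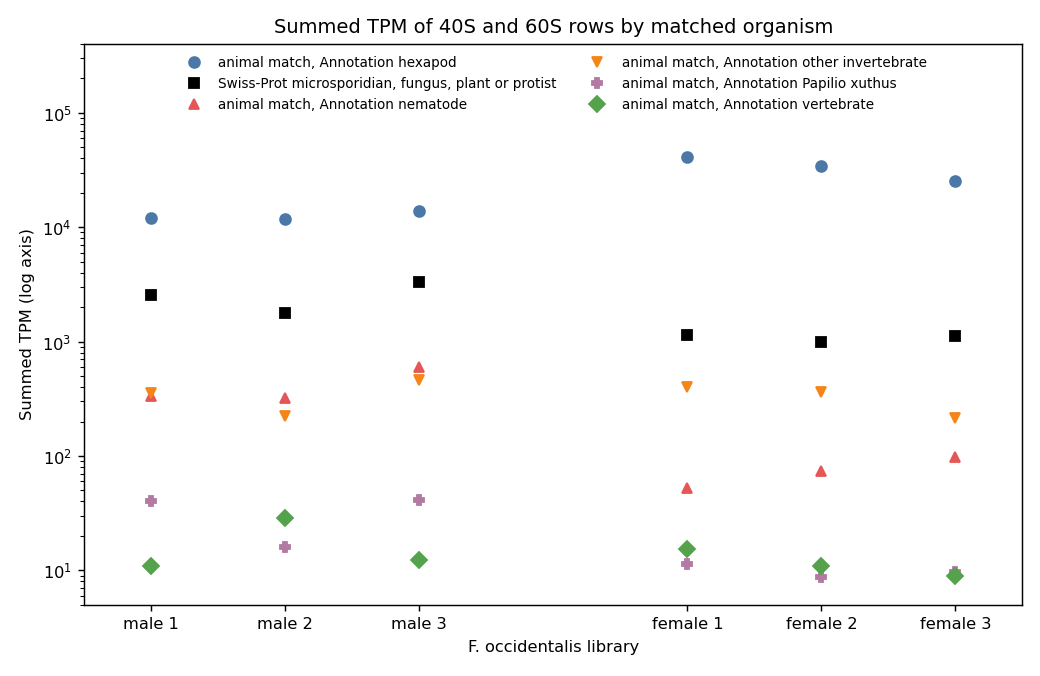
Summed TPM per F. occidentalis library (male libraries left, female libraries right) of 40S and 60S rows by matched organism, on a log axis. Hexapod-annotated rows lie at 11809 to 13919 TPM in males and 25562 to 40753 TPM in females, while nematode-annotated rows lie at 324 to 604 TPM in males and 52.8 to 98.1 TPM in females. Most of the nematode-annotated TPM is the single L29 row TRINITY_DN39361_c1_g4, at 223 to 561 TPM in males and 40.55 to 84.1 TPM in females.

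Among the 8 hexapod-annotated rows above 0, looked up after the values were seen, L36 TRINITY_DN53156_c0_g1 had 128, 63.3 and 143 TPM in the male libraries, against 39.3, 24.5 and 37.4 TPM in the female libraries (1.64; limma adjusted p = 0.0630). L17 TRINITY_DN55164_c0_g1 had 86.0, 33.3 and 90.1 TPM in the male libraries, against 17.9, 17 and 22.7 TPM in the female libraries (1.69; limma adjusted p = 0.0731). Both separated the sexes without passing the threshold. Of the other invertebrates, S2 TRINITY_DN48590_c0_g1, whose Annotation match is the sponge Amphimedon queenslandica, had 56.0, 21.1 and 64.6 TPM in the male libraries, against 11.4, 10.7 and 13.3 TPM in the female libraries (1.77; limma adjusted p = 0.0736). A pair of S11 rows with a leech match, TRINITY_DN10984_c0_g1 and TRINITY_DN55712_c0_g1, had log2 fold changes of 1.58 and 1.93, and a pair of L22 rows with a spider mite match 1.62 and 1.82, none past the threshold. The hexapod-annotated rows of S11 and L22 are more abundant and have log2 fold changes below 0.

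Another pattern belonged to 9 rows whose Swiss-Prot and Annotation matches are both Caenorhabditis. Each was highest in male library 2, and together they held 11.3, 84.2 and 8.68 TPM in the male libraries, against 6.10, 5.65 and 7.16 TPM in the female libraries. Their listed lengths were 202 to 254 bases and none had a value above 0 in F. intonsa. The 3 rows that reached 1 TPM in males alone, of S2, S5 and L13a, are among them, so their direction was fixed by the TPM minimum. None of the other 6 passed the threshold (limma; 0 higher and 0 lower at an unadjusted p under 0.05).

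Rows matched outside the animals were called higher in males and not lower. Of the 79 40S and 60S rows that passed the TPM minimum with a microsporidian, fungal, plant or protist match in Swiss-Prot, 21 were higher in males and 0 lower (limma adjusted p under 0.05), against 0.968% and 0.918% of all rows. The sexes separated with males higher in 58, 1 of which met the TPM minimum through the male libraries alone, against 13.3% of all rows, and with males lower in 2, against 6.83%. The median log2 fold change was 1.60. All 177 rows with such a match, tested or not, held 0.271% ± 0.0802 of TPM in males and 0.113% ± 0.00779 in females (SD, n = 3 each; exact two-sided permutation test, p = 0.1). In males they stood at 239.5% of the female mean, where the 168 rows stood at 40.1%. Of the 30 tested rows with a match to microsporidia, which are intracellular parasites, 10 were higher and 0 lower, at a median of 1.69. The L37 row TRINITY_DN1052_c0_g1 had 43.4, 29 and 57.4 TPM in the male libraries, against 4.82, 7.80 and 9.79 TPM in the female libraries (2.38; limma adjusted p = 0.0200). The L11 row TRINITY_DN39589_c1_g11 had 37.4, 19.8 and 32.1 TPM in the male libraries, against 6.65, 4.94 and 5.38 TPM in the female libraries (2.17; limma adjusted p = 0.0200). The sexes did not overlap in either row. Their Annotation matches were arthropods, Ixodes pacificus for the L37 row and Trichogramma pretiosum for the L11 row. Some others of the 79 rows also had a hexapod Annotation match. Fungal matches had 5 of 27 higher (median 1.40), plant or algal matches 4 of 17 (median 1.46) and protist matches 2 of 5 (median 1.87), with 0 lower in each (limma; at an unadjusted p under 0.05, 0, 2 and 0 lower). Which organism the rows of either kind come from was not tested.

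A few sums depended on which matched organisms were counted. L29 was the single protein whose sum lay above 0, at 418, 364 and 776 TPM in males, against 515, 528 and 424 TPM in females (0.01 ± 0.32 SE; limma adjusted p = 0.992), and the sexes overlapped. Over its hexapod-annotated rows alone, L29 had 118, 142 and 214 TPM in the male libraries, against 475, 461 and 339.8 TPM in the female libraries (-1.45; limma adjusted p = 0.0498). The S11 sum was at -0.71 (adjusted p = 0.296) and at -1.34 from hexapod-annotated rows (adjusted p = 0.0438), and the L22 sum at -0.98 (adjusted p = 0.0936) and at -1.30 (adjusted p = 0.0414), all by limma. With hexapod-annotated rows alone 47 of the 70 sums were lower in males and 0 higher, the median was -1.43, the range -2.04 to -0.75 and the SD across proteins 0.24. Male means were then 23.6% to 58.6% of female means, with a median of 36.5%.

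Some of the 9 proteins without a row of their own, namely P0 to P2, S27a, L40, L5, S15 and L37, had rows under other names or matches. Whether each such row is of the thrips was not tested. The stalk proteins P0, P1 and P2 recruit translation factors to the large subunit and are annotated as acidic ribosomal proteins. Their 11 rows held 1009, 992 and 1164 TPM in the male libraries, against 4037, 3346 and 2472 TPM in the female libraries, and of 7 tested rows 3 were lower and 0 higher (limma; 5 lower and 0 higher at an unadjusted p under 0.05), where 0.918% of all rows were called lower and 0.968% higher. The P2 row TRINITY_DN42422_c0_g3 had 316, 247 and 326 TPM in the male libraries, against 1589.9, 1209.8 and 798 TPM in the female libraries (-1.97; limma adjusted p = 0.0209), and a second P2 row, TRINITY_DN42422_c0_g6, had 11.4, 33.7 and 11.3 TPM in the male libraries, against 131, 107 and 67.1 TPM in the female libraries (-2.51; limma adjusted p = 0.0330). Neither row's sexes overlapped, as in most 60S rows.

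S27a and L40 are made as fusions with ubiquitin, the small protein that marks others for breakdown. Of 9 tested fusion rows 1 was lower and 1 higher (limma adjusted p under 0.05), with the same shares of all rows, 0.918% and 0.968%, as background. All 15 rows of the list summed to 1047, 954 and 1291 TPM in males, against 2527, 2363 and 1861 TPM in females. The S27a fusion TRINITY_DN46279_c2_g1 had 377, 341 and 376 TPM in the male libraries, against 1194, 969 and 779.7 TPM in the female libraries (-1.41; limma adjusted p = 0.0351). A low L40 fusion row, TRINITY_DN33753_c0_g2, had 12.7, 8.87 and 15.3 TPM in the male libraries, against 3.72, 2.48 and 2.94 TPM in the female libraries (1.70; limma adjusted p = 0.0474). The Annotation match of this L40 row is Octopus bimaculoides, and which organism it comes from was not tested. L5 appeared in 2 rows with a plant Swiss-Prot match but a spittlebug Annotation match. TRINITY_DN40300_c0_g3 had 72.2, 52.3 and 23.9 TPM in the male libraries, against 199, 238 and 109.9 TPM in the female libraries (-1.92; limma adjusted p = 0.0688) and TRINITY_DN40300_c0_g2 had 108, 79.9 and 137 TPM in males, against 266, 202 and 268 TPM in females (-1.19; limma adjusted p = 0.0747). The sexes separated in both L5 rows with males lower. S15 row TRINITY_DN39808_c0_g1 had a plant Swiss-Prot match and a Zootermopsis nevadensis Annotation match. It had 12.1, 17.3 and 27.6 TPM in males, against 29.15, 25.1 and 34.5 TPM in females (-0.68, limma adjusted p = 0.402), and the sexes overlapped. Plant-matched S15-3 rows TRINITY_DN42223_c3_g8 and TRINITY_DN42223_c3_g2 lay at 1.81 and 1.72 (limma adjusted p = 0.107 and 0.476). The L37 row given above has a microsporidian Swiss-Prot match and an Ixodes pacificus Annotation match, so it is not shown to be the thrips protein.

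The rest of the translation apparatus is given by list. Elongation factors 1 and 2, which deliver aminoacyl tRNA and move the ribosome along, had 3 of 14 tested rows lower and 0 higher (limma), against 0.918% and 0.968% of all rows, a median of -1.06 and, over all 24 rows of the list, sums of 1078, 772 and 695 TPM in males, against 1650, 1498 and 1313 TPM in females. The elongation factor 1-gamma row TRINITY_DN41204_c0_g1 had 10, 3.18 and 14.3 TPM in the male libraries, against 59.6, 37.7 and 42.5 TPM in the female libraries (-2.39; limma adjusted p = 0.0427). Of 56 translation initiation factor rows, 0 passed the threshold in either direction (limma; 5 lower and 2 higher at an unadjusted p under 0.05; median -0.06). Among 99 mitochondrial ribosomal protein rows, 0 passed (5 lower and 1 higher at an unadjusted p under 0.05; median -0.20). For 48 rows of ribosome biogenesis and nucleolar proteins the count was also 0 (6 lower and 1 higher unadjusted; median -0.41), as for 30 tRNA ligase rows (3 lower and 0 higher unadjusted; median -0.25), 4 RNA polymerase I rows (0 and 0 unadjusted; median -0.42) and 4 polyadenylate-binding protein rows (1 and 1 unadjusted; median -0.21). Over all 22015 rows tested, 1159 were lower and 2256 higher at an unadjusted p under 0.05. Among the unadjusted counts of these lists, 1 mitochondrial row lower and 1 biogenesis row higher met the TPM minimum through the libraries of 1 sex alone. RACK1, a scaffold on the small subunit, had 2 rows by this wording and neither passed the TPM minimum. Their Annotation matches are Caenorhabditis elegans and Crassostrea angulata, so the level of RACK1 in the thrips is not shown. No test of the difference between these lists and the ribosomal proteins was made.

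Fold changes and levels were also set against the listed length of the assembled rows in bases, which is not protein size. Across the 70 sums, the log2 fold change and the greatest listed row length had Pearson's r = -0.25 and Spearman's rho = -0.19, and the log2 level and length r = -0.19 and rho = -0.22, over proteins that share their libraries. Across the 168 rows the log2 fold change went with the log2 mean level at r = -0.60 and rho = -0.49, and across the 136 cytosolic hexapod-annotated rows at r = -0.36 and rho = -0.18. Both axes of these last relations use the same 6 libraries.

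At the TPM minimum, 12 rows reached 1 TPM in exactly 3 libraries and 8 rows missed by 1 library. Of the 12 inside, 9 had a C. elegans Swiss-Prot match. S5 TRINITY_DN9003_c0_g1, with 2.46, 12 and 1.62 TPM in males, against 0.770, 0 and 0.850 TPM in females, is 1 of the 3 that passed through males alone. Others passed through both sexes, as L7a TRINITY_DN3911_c0_g1, with 0, 11.6 and 0.59 TPM in males, against 0, 1.23 and 1.33 TPM in females. Outside stood L24 TRINITY_DN38586_c0_g2, with 18.7, 27.9 and 0 TPM in males, against 0, 0 and 0.780 TPM in females, and L12 TRINITY_DN40991_c1_g3, with 0.210, 0.490 and 0.530 TPM in males, against 1.75, 2.02 and 0.880 TPM in females. Of the 115 animal-matched rows outside, 75 were listed at 0 in all 6 F. occidentalis libraries and above 0 in F. intonsa.

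In F. intonsa females many of the 168 rows were listed at 0, and values are given per library with no fold. The rows held 0.70%, 1.74% and 0.310% of TPM in F. intonsa libraries 1, 2 and 3, against 4.30%, 3.65% and 2.70% in the F. occidentalis female libraries. A value of 0 in all 3 F. intonsa libraries was listed for 67 of the 168 rows, and 66 were above 0 in all 3. With all 283 animal-matched rows the shares were 1.34%, 3.21% and 0.735%, against 4.30%, 3.65% and 2.70%, and 72 of 73 proteins were above 0 in all 3 F. intonsa libraries. Sums per protein over all animal-matched rows had medians of 123, 367 and 28.4 TPM in the F. intonsa libraries, against 569, 461 and 359 TPM in the F. occidentalis female libraries. F. intonsa library 2 lay within the range of F. occidentalis females for 36 of the 70 proteins, above it for 12 and below it for 22. F. intonsa libraries 1 and 3, which stand apart, lay below that range for 62 and 66 proteins.

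In 21 of 57 assembly components with at least 2 hexapod-annotated rows of the 168, the highest row differed between the females of the species. Rows outside the 168, which were chosen by F. occidentalis values, were not compared, so this count can miss components. For S20, the rows of the 168 were at 0 in all 3 F. intonsa libraries. TRINITY_DN38459_c0_g2 of the same component, outside the 168, had 399, 333 and 57.0 TPM there. In 1 of the 21 (SA) the highest F. intonsa row was listed at 0, 0.11 and 0 TPM, and in another the rows were of different proteins, L27 and L9. For L31, TRINITY_DN37009_c0_g1 had 143, 660.5 and 84.9 TPM in F. intonsa, against 35.4, 43.8 and 34.3 TPM in F. occidentalis females, while TRINITY_DN37009_c0_g3 had 49.6, 278.9 and 47.4 TPM in F. intonsa, against 1386, 1104 and 776 TPM in F. occidentalis females. The first row was thus higher in every F. intonsa library and the second lower in every one. The 5 rows with the highest sum in F. intonsa were of L36, L35a, S14, S9 and S28. The L36 row TRINITY_DN39686_c0_g3 had 516, 753 and 59.1 TPM in F. intonsa, against 57.2, 138 and 66.3 TPM in F. occidentalis females. L35a (TRINITY_DN42426_c0_g2) had 216, 1015 and 93.9 TPM in F. intonsa, against 632, 725 and 407 TPM in F. occidentalis females. These 2 rows varied widely among the F. intonsa libraries, with library 2 the highest. S14 (TRINITY_DN44662_c0_g6) had 314, 645 and 244 TPM in F. intonsa, against 326, 299 and 199 TPM in F. occidentalis females. S9 (TRINITY_DN44069_c0_g1), at the mRNA entry, had 409.9, 443 and 208 TPM in F. intonsa, against 91.9, 92.6 and 79.1 TPM in F. occidentalis females, with no overlap. S28 (TRINITY_DN41171_c0_g1) had 267, 323 and 316 TPM in F. intonsa, against 562, 411 and 240.1 TPM in F. occidentalis females. The S9 row is 1 of 13 among the 168 in which all 3 F. intonsa libraries lay above all 3 F. occidentalis female libraries, against 0.881% of all 22015 rows, and 5 of the 13 have a vertebrate Swiss-Prot and Annotation match. Vertebrate-annotated 40S and 60S rows summed to 212, 214 and 240 TPM in F. intonsa, to 14.7, 56.4 and 15.9 TPM in F. occidentalis males and to 19.5, 13.8 and 11.7 TPM in F. occidentalis females, and where they come from was not tested.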

How the data were processed

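RNA from antennae was measured in 9 libraries, 3 per group. Per the labels' protocols, SMARTer cDNA was amplified by PCR, and the tools named in the submitters' processing notes, without versions, are Salmon, FastQC and cutadapt. For the assembler and the annotation release, nothing is given in the sources used here. The values are TPM in a single table deposited by the authors, a unit inferred from column totals and Salmon's output. Each of its 9 value columns took its sample from its name, which left 0 without one.

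From these values, limma-trend (limma 3.58.1, R 4.3.3) was fitted to log2(TPM + 1) of the 6 F. occidentalis libraries, without covariates, over 22015 rows with at least 1 TPM in at least 3 libraries, with Benjamini-Hochberg adjustment and a threshold of 0.05. Sums per protein replaced their rows in the same fit (21918 rows). Shares were compared by exact permutation. Tables and figures used scipy 1.17.1, matplotlib 3.10.9, numpy 2.4.6, pandas 2.3.3 and Python 3.11.15.

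Rows named are, by rule, the called rows of largest change (up to 10 each way, 1 per protein), the 8 of highest mean, rows of proteins called both ways, the 8 most changed and the 5 highest and 5 lowest sums, the 5 highest rows in F. intonsa and up to 2 called rows per list. Others were chosen after their values were seen. The rows and lists were chosen with earlier results of these data known. Lists follow Swiss-Prot wording, and Annotation organism classes were set after the data were seen. Alternatives were other pseudocounts, scalings, filters and organism sets, a replicate block and leaving out each library.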

Additional observations from a re-analysis of the deposited data

How the results depend on the processing

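Median log2 fold changes kept their sign under every alternative run, from -1.58 to -1.17 over rows and from -1.66 to -1.25 over sums, and the share difference stayed between -2.76 and -1.71 percentage points. The numbers of calls did not hold. Rows lower in males (61) were 40 with a pseudocount of 5, 26 after quantile normalization, 2 without trend, 30 with all 9 libraries in 1 fit, 10 without a filter and 2 to 19 without 1 library. Rows higher (4) were 2 after quantile normalization, 1 with median centring, 1 without trend, 0 with all 9 libraries, 1 without a filter, 12 with 1 TPM required in all 6 libraries (87 lower) and 0 to 9 without 1 library. Sums lower (42) were 13 after quantile normalization, 0 without trend, 10 with all 9 libraries and 0 to 13 without 1 library. With insect Swiss-Prot matches alone 1 sum was higher, S5 at 1.86 against -0.81. The cause of these changes was not tested. With the replicate number as a block 24 rows were lower and 7 higher, and 15 sums lower. Deviations of same-numbered libraries correlated at -0.029, 0.050 and -0.035, and those of libraries with unlike numbers at -0.034 to 0.056. This shows no sign of pairing by number, but it cannot exclude that same-numbered libraries were handled together.

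Signs changed in S12 row TRINITY_DN39123_c0_g2 (-0.10), which was 0.076 with a pseudocount of 5 and -0.86 to 0.95 without 1 library (0.95, 0.10 and 0.07 without male library 1, female library 2 and female library 3). The L29 sum (0.01) was -0.22 with median centring, -0.32 to 0.23 without 1 library (-0.32 without male library 3 and -0.09 without female library 3) and -1.45 over insect-matched or hexapod-annotated rows. TPM hold no depth, so counting error cannot be given.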
